A study of Mus musculus with 2 samples.

Results

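The blood vessels of the cerebral cortex were described here through 39 genes, of 55536 annotated, that mark brain endothelial and mural cells. The genes were chosen by symbol from knowledge of these cell types and fall into 30 endothelial, 6 pericyte and 3 smooth muscle genes. The samples were ribosome-reduced total RNA of left cerebral cortex from 2 females of 8 to 10 months, adult mice of the strain B6CASTF1/J, the F1 hybrid of C57BL/6J and CAST/EiJ. Replicate 1 is animal 1 and replicate 2 is animal 5, each with 1 library from 300 ng of RNA with ERCC spike-ins, which are synthetic control transcripts. Both belong to the same group, and the labels name no treatment, so the design sets no condition against another. Both labels carry the same donor entry, so only the animal numbers mark the mice as different.

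Brain capillaries are lined by endothelial cells whose tight junctions and low vesicle traffic form the blood-brain barrier, and dedicated carriers move glucose, amino acids and lipids across it. Pericytes sit on the capillary wall within the basement membrane and are recruited by endothelial PDGF-B acting on PDGFRβ, while smooth muscle cells wrap arteries and arterioles and set their tone. Endothelial VEGF, angiopoietin-TIE2 and NOTCH signalling govern growth and quiescence of the vessels, and WNT7 ligands from neural cells keep the barrier program on.

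Replicate 1 had 28327434 estimated read counts and replicate 2 had 30234441. Levels are in TPM, a share of all transcripts that corrects for transcript length. Values come from the deposited gene and transcript tables in RSEM layout (the first table) unless the deposited transcript table in kallisto layout (the second table) is named. A difference between the animals is the log2 difference in CPM (counts scaled by library size, TMM factors) of replicate 2 minus replicate 1, and its SE covers counting error only. With 1 library per animal such a difference cannot be checked against replicates and carries no p-value. Differences were taken for the 14122 genes that averaged 50 counts or more. In bulk cortex, fewer cells of a type and less RNA per cell cannot be told apart.

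All the genes had reads in both animals, from 43 to 4250 counts per library. Of the 39, 38 reached 1 TPM in both animals, 15 had a mean of at least 10 TPM and 14 were under 5 TPM. The exception was Kcnj8, at 1.10 TPM in replicate 1 and 0.98 TPM in replicate 2. By class medians, endothelial genes stood above mural genes. The median endothelial gene stood at 9.30 TPM in replicate 1 and at 9.28 in replicate 2, the median pericyte gene 4.50 and 5.58 TPM, and the median smooth muscle gene 3.29 and 4.29 TPM. As means over the animals these are 9.29 ± 0.0177, 5.04 ± 0.767 and 3.79 ± 0.707 TPM (SD, n = 2). The smooth muscle median is the value of Tagln alone in both animals. Its rise in TPM was not seen in its counts (84 and 77) or in the second table (3.23 and 2.82 TPM). The order of the 3 class medians was the same in both animals, and no class's pair of values overlapped another's, although single pericyte genes such as Vtn and Rgs5 stood above most endothelial genes. For scale, the median of the 12958 detected nuclear protein-coding genes was 16.5 TPM. The defining markers sat near the middle of those genes: 53.8% of them lay below Cldn5 and 56.3% below Rgs5. The plot of levels by role shows each gene in each animal.

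**Figure D1:**
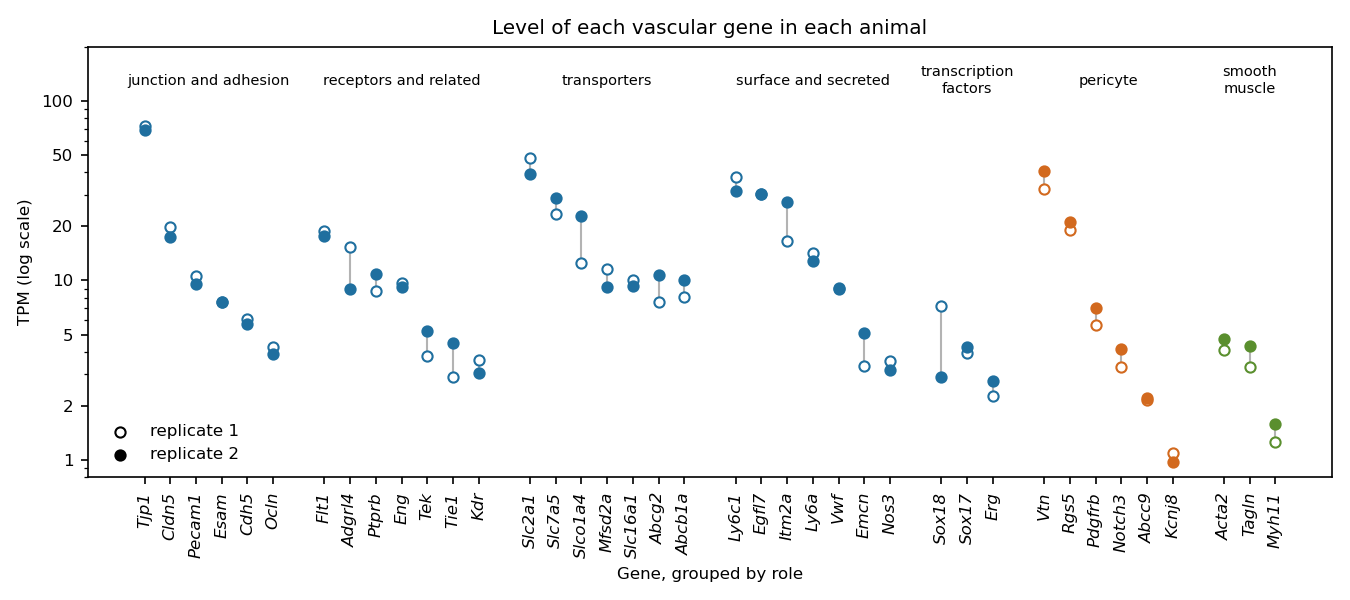
Level of each vascular gene in TPM (y axis, log scale) in replicate 1 (open circles) and replicate 2 (filled circles), with genes grouped by role on the x axis and a line joining the animals. Endothelial genes are blue, pericyte genes orange and smooth muscle genes green, and the widest gaps between the animals belong to Sox18, Slco1a4, Adgrl4 and Itm2a.

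The ranking of the genes was similar in both animals. Across the 39 genes the log2 TPM of the animals correlated with r = 0.959 (Pearson) and rho = 0.936 (Spearman), a description over genes that share each library. In the order of mean levels, 9 of the 38 neighbouring pairs had animal values that did not overlap. Tjp1 stood apart from Slc2a1 at the top, Egfl7 from its neighbours Ly6c1 and Slc7a5, and Esam from Vwf and Pdgfrb. At the bottom, Kdr, Erg, Abcc9, Myh11 and Kcnj8 each stood apart from the next. In the second table Vwf (6.311 and 7.555 TPM) overlapped Esam (7.093 and 7.094 TPM). Erg (1.819 and 2.439 TPM) likewise overlapped Abcc9 (1.887 and 2.005 TPM) there. The separations of Vwf from Esam and of Erg from Abcc9 thus hold in the first table alone. From Slc7a5 down to Vwf, and from Pdgfrb down to Kdr, no neighbours separated, so the order within those ranges is not resolved by these animals.

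Junction and adhesion genes ran from 4.08 to 70.9 TPM as means over the animals. Tjp1, the scaffold protein ZO-1 that many cell types use, stood at 72.8 TPM in replicate 1 and at 69.0 in replicate 2, the highest levels of all 39 genes. Its short transcripts Tjp1-203, Tjp1-204 and Tjp1-205 (699, 385 and 551 nt) held 9.61, 13.3 and 16.8 TPM in replicate 1. They held 10.9, 12.3 and 13.4 TPM in replicate 2. The long Tjp1-201 and Tjp1-202 held 14.4 and 17.1 TPM in replicate 1 and 14.7 and 15.9 TPM in replicate 2. The gene's level in TPM thus leans on short transcripts. Cldn5, the claudin that seals brain endothelial tight junctions (ENSMUSG00000041378.2, mm10 chr16:18776847-18778262, 1 exon), had 19.9 and 17.5 TPM. Pecam1, an adhesion molecule at endothelial cell borders, had 10.6 and 9.58 TPM. Below these came Esam, another adhesion molecule of the immunoglobulin family, at 7.59 and 7.61 TPM and Cdh5, the cadherin of endothelial adherens junctions, at 6.12 and 5.75 TPM. Ocln, the tight junction protein occludin, was lowest of the group at 4.24 and 3.91 TPM. Of the membrane proteins of the tight junction, the claudin thus stood well above occludin in both animals. Of the 6 genes, 5 had a lower log2 CPM in replicate 2, and the largest difference was −0.26 (SE 0.0958) for Cldn5.

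Among receptors and related surface proteins, Flt1 was highest. This VEGF receptor, which binds VEGF-A and VEGF-B and can act as a decoy (ENSMUSG00000029648.13, mm10 chr5:147561604-147726011), stood at 18.9 TPM in replicate 1 and at 17.6 in replicate 2. Kdr, the main signalling VEGF receptor, had 3.59 and 3.04 TPM. The ratio of Flt1 to Kdr was 5.26 in replicate 1 and 5.79 in replicate 2, and in the second table it was 5.37 and 5.92. All 4 values lay within a narrow band.

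Part of the Flt1 level came from the soluble form, which carries the ligand-binding domains and lacks the membrane and kinase parts. It arises where the transcript reads on past an exon boundary into the intron and ends there. The transcript Flt1-203 (13 exons, 2064 coding nt) is this form, and Flt1-202 (30 exons, 3999 coding nt) is the receptor. The sequences below show the boundary in the mm10 build, chr5, minus strand, taken from the GENCODE M21 transcripts: the last 30 shared coding bases in lower case, then in capitals the bases particular to each form. For the soluble form the run covers chr5:147639130-147639254 and ends in its stop codon. For the receptor the capitals are the next exon, chr5:147634377-147634523.
Flt1-203: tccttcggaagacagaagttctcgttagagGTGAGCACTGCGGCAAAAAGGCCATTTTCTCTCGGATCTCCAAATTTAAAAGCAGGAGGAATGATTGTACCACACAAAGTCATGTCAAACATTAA
Flt1-202: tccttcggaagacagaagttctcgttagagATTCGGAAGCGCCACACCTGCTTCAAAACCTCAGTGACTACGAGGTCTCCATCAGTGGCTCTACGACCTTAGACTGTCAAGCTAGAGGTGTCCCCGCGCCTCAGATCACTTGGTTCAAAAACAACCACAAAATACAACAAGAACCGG

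The soluble form took 32.6% of the Flt1 TPM in replicate 1 and 34.4% in replicate 2, or 33.5% ± 1.25 (SD, n = 2). The receptor form took 56.4% and 56.7%. In the second table the soluble form had 33.1% and 32.5% and the receptor form 56.0% and 55.4%. So the receptor form led in both animals and both tables, and the split moved by under 2 percentage points between them. The counts behind it were 692 and 706 for the soluble form and 1312 and 1278 for the receptor form.

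The angiopoietin receptors were low. Tek, which encodes TIE2, stood at 3.80 TPM in replicate 1 and at 5.25 in replicate 2. Tie1, its orphan partner, had 2.91 and 4.47 TPM. Both were higher in replicate 2, with log2 differences of 0.37 (SE 0.107) for Tek and 0.53 (SE 0.126) for Tie1. Ptprb, the phosphatase VE-PTP that dephosphorylates TIE2, had 8.74 and 10.9 TPM and a difference of 0.27 (SE 0.0472) in the same direction. Eng, the TGF-β co-receptor endoglin, had 9.65 and 9.21 TPM. Adgrl4, an adhesion G protein-coupled receptor of endothelium also called ELTD1 (mm10 chr3:151437887-151545086), had 15.4 and 8.94 TPM. It was the receptor with the largest difference, −0.83 (SE 0.0941), from 617 counts in replicate 1 and 380 in replicate 2. The 7 receptors were thus mixed, with 3 higher and 4 lower in replicate 2.

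Transporters had the highest median of the endothelial roles after the surface and secreted genes, at 11.5 TPM in replicate 1 and 10.7 TPM in replicate 2. Slc2a1, the glucose transporter GLUT1, which astrocytes also express, had 47.9 and 39.4 TPM. Slc7a5, the large neutral amino acid transporter LAT1, had 23.3 and 28.8 TPM. Slco1a4, an organic anion transporter of brain endothelium (mm10 chr6:141805440-141856199), stood at 12.6 TPM in replicate 1 and at 22.8 in replicate 2. Its difference of 0.59 (SE 0.0716) rested on 652 and 1076 counts. Mfsd2a, the lysophospholipid carrier that restrains transcytosis, went the other way, at 11.5 and 9.25 TPM and −0.56 (SE 0.108). The drug efflux pumps had levels near those of Mfsd2a. Abcb1a, P-glycoprotein, had 8.13 and 10.0 TPM, and Abcg2, the breast cancer resistance protein, had 7.60 and 10.7 TPM. Both had a difference of 0.22 (SE 0.0716 and 0.116). Slc16a1, the monocarboxylate transporter MCT1, had 10.0 and 9.30 TPM.

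Surface and secreted proteins included the highest endothelial genes beside Tjp1 and Slc2a1. Ly6c1, a GPI-anchored surface protein of endothelial cells, stood at 37.5 TPM in replicate 1 and at 31.5 in replicate 2. Egfl7, a secreted protein of the vessel wall, had 30.3 and 30.2 TPM. Itm2a, a membrane protein enriched in brain endothelium (mm10 chrX:107397099-107403376), had 16.5 and 27.5 TPM. Its difference of 0.65 (SE 0.0817), from 492 and 852 counts, was the largest upward difference among the 38 genes measured. Ly6a, or SCA-1, a relative of Ly6c1, had 14.3 and 12.8 TPM. Vwf, the clotting factor that large-vessel endothelium stores, had 8.95 and 9.11 TPM. Emcn, the sialomucin endomucin of veins and capillaries, had 3.35 and 5.07 TPM, from 83 and 133 counts. Nos3, the endothelial nitric oxide synthase, had 3.56 and 3.16 TPM. Within the group, 2 genes were higher and 5 lower in replicate 2.

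The 3 transcription factors were among the lower endothelial genes. Sox18, an SRY-box factor of vessel differentiation (ENSMUSG00000046470.5, mm10 chr2:181669836-181671640), stood at 7.22 TPM in replicate 1 and at 2.90 in replicate 2. Its counts were 199 and 83, and the log2 difference of −1.39 (SE 0.188) was the only one of the 38 past 2-fold. Sox17, its relative with a role in arteries, had 3.95 and 4.26 TPM, so the ratio of Sox17 to Sox18 was 0.547 in replicate 1 and 1.47 in replicate 2. Erg, an ETS factor that maintains endothelial identity, had 2.28 and 2.77 TPM. Neither Sox17 nor Erg differed by more than 1.2-fold, and their differences were 0.19 (SE 0.186) and −0.02 (SE 0.203).

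Pericyte genes ranged from 1.04 to 36.5 TPM as means over the animals. Vtn, the matrix protein vitronectin that brain pericytes secrete, stood at 32.3 TPM in replicate 1 and at 40.7 in replicate 2. Rgs5, a regulator of G protein signalling (ENSMUSG00000026678.10, mm10 chr1:169655501-169695813), had 19.1 and 21.3 TPM. Pdgfrb, the receptor for PDGF-B, had 5.68 and 7.02 TPM. Notch3, the Notch receptor of mural cells, had 3.31 and 4.14 TPM. All 4 were higher in replicate 2, and Vtn alone of them was past 1.2-fold, with a difference of 0.27 (SE 0.0661). The subunits of the vascular ATP-sensitive potassium channel closed the list: Abcc9, which encodes SUR2, had 2.16 and 2.21 TPM, and Kcnj8, which encodes the pore subunit Kir6.1, had 1.10 and 0.98 TPM. Abcc9 thus stood 1.96 times Kcnj8 in replicate 1 and 2.26 times in replicate 2. With 48 and 43 counts, Kcnj8 was below the minimum for a difference.

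Smooth muscle genes were the lowest class. Acta2, smooth muscle α-actin, stood at 4.10 TPM in replicate 1 and at 4.74 in replicate 2. Tagln, the actin-binding protein transgelin, had 3.29 and 4.29 TPM. Myh11, smooth muscle myosin heavy chain, had 1.26 and 1.58 TPM. Their counts ran from 77 to 190, so counting error was wide. Tagln was higher in replicate 2 by TPM and lower by counts (84 and 77, log2 difference −0.26, SE 0.228). In the first table the short Tagln-202, of 369 nt, took 4.73% of the gene's TPM in replicate 1 and 38.3% in replicate 2, from 0.76 and 8.32 counts. Its share went the other way in the second table, at 18.9% and 11.6%, so it is not resolved. In the second table Tagln was lower in replicate 2 by TPM as well, at 3.23 and 2.82 TPM. Pecam1 had the opposite mismatch in the first table, lower in replicate 2 by TPM and higher by counts (486 and 556), and in the second table its TPM was higher, at 8.30 and 9.11 TPM.

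The differences between the animals were then set against those of all genes. Of the 38 genes measured, 9 were higher in replicate 2 by more than 1.2-fold (background 14.3% of the 14122 genes) and 7 were lower (background 13.1%). The genes past 2-fold numbered 1 (background 1.25%), and it was Sox18. The model's credibility intervals of TPM lay apart, higher in replicate 2, for 7 genes (background 13.9%) and lower for 3 (background 5.87%). The 7 were Itm2a, Slco1a4, Tie1, Ptprb, Slc7a5, Pdgfrb and Vtn, and the 3 were Sox18, Adgrl4 and Slc2a1. The median difference over the 38 was −0.02, as it was over all 14122 genes. Among the 8744 genes with 50 to 1000 counts, 95% of differences lay between −0.64 and 0.79. Sox18 and Adgrl4 lay outside that range, and Itm2a lay inside it.

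**Figure D2:**
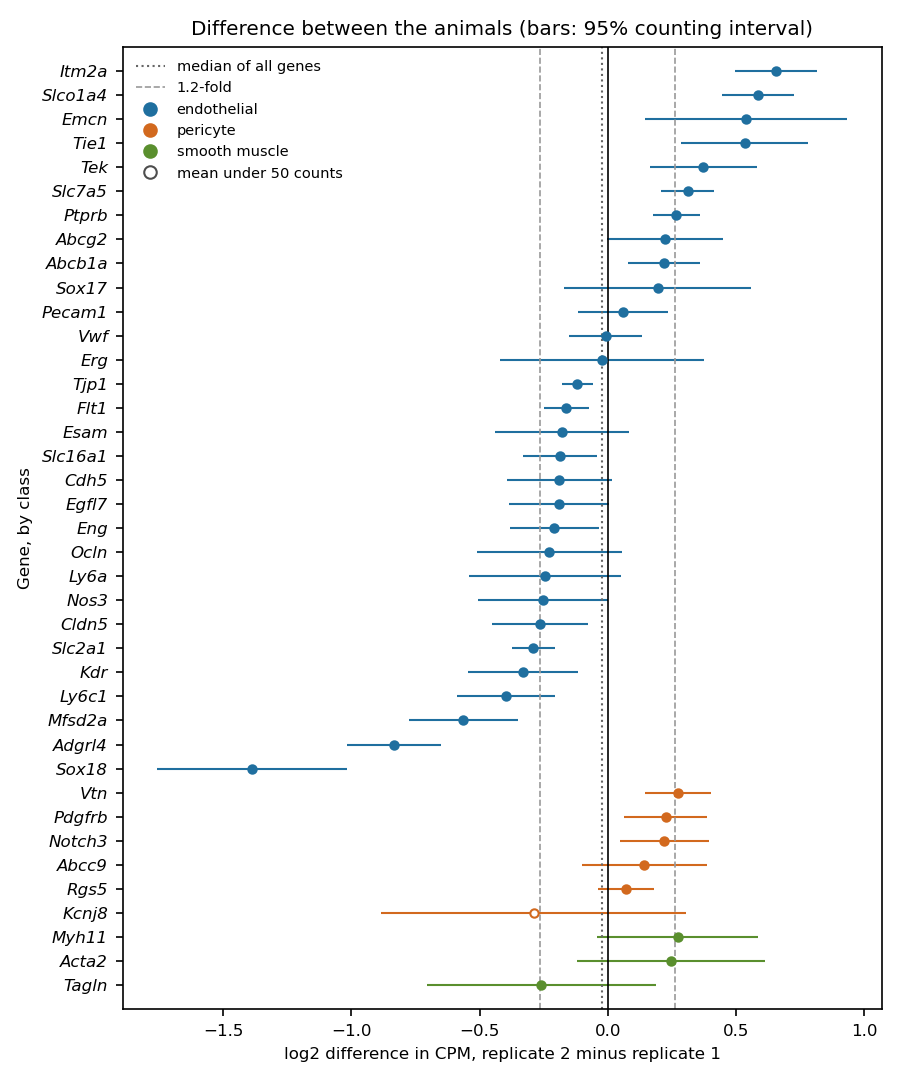
Log2 difference in CPM of each gene, replicate 2 minus replicate 1 (x axis), with genes on the y axis in their classes and bars giving the 95% counting interval. Dashed lines mark 1.2-fold and the dotted line the median of all genes, −0.02. Sox18 at −1.39 and Itm2a at 0.65 are the ends of the range. The 5 pericyte genes with enough counts (filled orange) all lie above 0, and Kcnj8, with fewer counts (open orange), lies below 0.

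By class, the endothelial genes had a median difference of −0.17, with 11 higher and 19 lower in replicate 2. Over all 14122 genes, 6438 were higher and 7684 lower. Of the endothelial genes, 7 were past 1.2-fold upward (background 14.3%) and 7 downward (background 13.1%). The 5 pericyte genes measured had a median of 0.22, with 5 higher and 0 lower and 1 past 1.2-fold (background 14.3%). Kcnj8, left out for its 48 and 43 counts, went the other way at −0.29 (SE 0.303). With it the pericyte median was 0.18, so the common direction holds only for the genes that passed the count minimum. The smooth muscle genes had a median of 0.24, with 2 higher and 1 lower. The mural genes summed to 72.2 TPM in replicate 1 and 87.0 TPM in replicate 2. Of these sums, Vtn held 32.3 and 40.7 TPM and Rgs5 held 19.1 and 21.3 TPM. The endothelial genes summed to 433.1 and 432.3 TPM, nearly level although more of them were lower than higher. The ratio of Cldn5 to Rgs5 was 1.04 in replicate 1 and 0.822 in replicate 2. In the second table this ratio was 1.285 and 1.006. It was thus lower in replicate 2 in both tables, and Cldn5 was below Rgs5 in the first table alone. Scaling to the spike-ins instead of TMM moved the median of all genes up by 0.28. Under it 19 of the 38 genes were higher by more than 1.2-fold (background 48.1%) and 3 lower (background 3.03%), and the class medians became 0.11 for endothelial, 0.50 for pericyte and 0.52 for smooth muscle genes. The endothelial median therefore changed sign with the scaling. The distance between the classes is the same under both, since this scaling raises all genes alike. Single endothelial genes, Itm2a, Slco1a4, Emcn and Tie1 among them, had larger upward differences than any pericyte gene.

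Other genes of these cell types were read from lists chosen by cell type. The lists were chosen with earlier results of these data known, so they are not independent support for the differences above. Of 14 further genes with pericyte or mural expression, 10 had enough counts, 9 of these were higher in replicate 2, 7 by more than 1.2-fold (background 14.3%), and 0 were lower by that much (background 13.1%). Their median difference was 0.52, beside −0.02 over all genes. The largest was Anpep, aminopeptidase N, with 3.10 TPM in replicate 1, 4.45 TPM in replicate 2 and a difference of 0.91 (SE 0.189). The list includes genes that other cells also express: Zic1, a factor also of neurons and meninges, and Kcnj11 and Abcc8, the subunits of the ATP-sensitive channel of neurons. The differences of Zic1, Kcnj11 and Abcc8 were 0.64, 0.39 and 0.70, so all are among those past 1.2-fold. Kcnj11 had 17.8 and 21.6 TPM, many times the level of Kcnj8 in both animals (16.2 and 22.1 times). Of 14 further smooth muscle genes, 8 had enough counts, with 3 higher and 5 lower and a median of −0.06, and 5 of the 14 were under 1 TPM in both animals. Of 28 further endothelial genes, 25 were measured, with 9 higher and 16 lower and a median of −0.10. Among them Pglyrp1, a peptidoglycan-binding protein, had 11.0 and 4.43 TPM and a difference of −1.36 (SE 0.243), and Slc22a8, the organic anion transporter OAT3, had 4.17 and 6.67 TPM and a difference of 0.60 (SE 0.121).

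Genes of cells next to the vessel wall also differed. Of 10 genes of perivascular and meningeal fibroblasts, 8 were measured, 7 were higher in replicate 2, 5 of them by more than 1.2-fold (background 14.3%), and the median was 0.28. Their summed level was 86.8 TPM in replicate 1 and 110.2 TPM in replicate 2, and none was at 0. Of that sum, Igf2 held 38.6 and 47.1 TPM and Pdgfra 14.7 and 19.4 TPM. The part of other cells in these levels was not tested. Fibroblasts also express Pdgfrb, and the part of these cells in the pericyte differences was not tested. Perivascular macrophage genes had a median of −0.39 over the 3 measured of 6, with a summed level of 10.3 and 5.94 TPM. Choroid plexus genes were lower in replicate 2, all 4 of those measured (of 6) by more than 1.2-fold (background 13.1%), and summed to 183.2 and 64.3 TPM, with Ttr, the transthyretin that this epithelium secretes, at 171.7 and 55.7 TPM. Their part in the endothelial differences was not tested. The 5 red blood cell genes summed to 462.0 and 537.7 TPM, with a median difference of 0.10. Astrocyte, microglial and excitatory neuron genes had medians of −0.13, −0.07 and 0.03. Oligodendrocyte genes had a median of 0.06 and summed to 1729 and 1904 TPM, with 3 of 8 higher (background 14.3%) and 1 lower (background 13.1%) by more than 1.2-fold. Among them Opalin, a myelin membrane protein, differed by 1.06 (SE 0.146) and Mag, myelin-associated glycoprotein, by 0.55 (SE 0.0386).

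**Figure D3:**
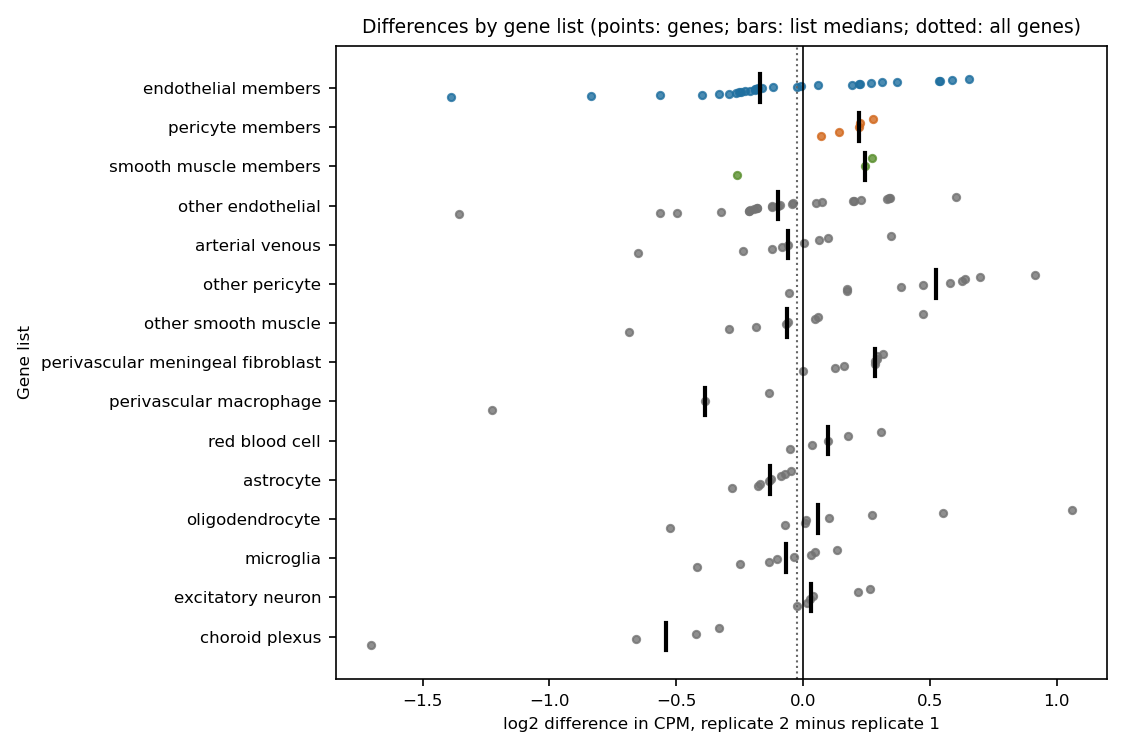
Log2 difference in CPM, replicate 2 minus replicate 1 (x axis), for genes of each list averaging 50 counts or more (points), with the list median as a black bar and the median of all genes as a dotted line. The pericyte genes (median 0.22), the further genes with pericyte or mural expression (0.52) and the fibroblast genes (0.28) lie mostly to the right. The endothelial genes (median −0.17) spread on both sides.

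Ligands and partners of the receptors gave the other side of these pathways. Vegfa, the VEGF that astrocytes and neurons make, stood at 33.8 TPM in replicate 1 and at 37.7 in replicate 2. By counts Vegfa was lower in replicate 2 (1327 and 1269, log2 difference −0.20, SE 0.0566). Vegfb, a ligand of FLT1 and not of KDR, had 45.7 and 49.8 TPM. Vegfa stood 9.41 and 12.4 times above Kdr, and Vegfb 2.42 and 2.83 times above Flt1, so these ligands stood above their receptors in both animals. Angpt1, the TIE2 agonist, had 2.89 and 5.10 times the level of Angpt2, its context-dependent antagonist, which was under 1 TPM in both. Of the 8 VEGF and angiopoietin ligands 4 were measured, with 3 higher and 1 lower and 1 past 1.2-fold, upward (background 14.3%). Pdgfb, the endothelial ligand of PDGFRβ, had 14.3 and 12.5 TPM and a difference of −0.33 (SE 0.0796), opposite in sign to Pdgfrb. The ratio of Pdgfb to Pdgfrb was 2.51 in replicate 1 and 1.78 in replicate 2. Dll4, the Notch ligand of arterial and tip cells, had 2.01 and 0.95 TPM and a difference of −0.61 (SE 0.234). Of the 8 PDGF and Notch ligands, 6 were lower in replicate 2, 3 of them by more than 1.2-fold (background 13.1%), and 0 were higher by that much (background 14.3%). The 12 genes of the WNT barrier pathway had a median of 0.04, with 3 higher by more than 1.2-fold (background 14.3%) and 0 lower (background 13.1%). Apcdd1, a WNT inhibitor and target in brain endothelium, and Lef1, a transcription factor of the pathway, each had a difference of 0.32 (SE 0.0818 and 0.153).

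Close relatives share sequence with several of the genes, and reads that fit both are divided by the quantification. Gene counts of Ly6c1, Abcb1a and Ly6a were fractional in the first table (488.5, 722.4 and 191.4 in replicate 1), so their levels are uncertain. Ly6c1 stood 26.1 and 24.6 times above Ly6c2. Abcb1a stood 10.3 times above Abcb1b in replicate 1 and 5.30 times in replicate 2, and Abcb1b itself had 0.79 and 1.89 TPM. Slc2a1 (2427 and 2182) and Slc7a5 (1319 and 1799) had whole counts in the first table, so their relatives are given for level only. The GLUT1 gene Slc2a1 was below Slc2a3, the neuronal glucose transporter, with ratios of 0.869 and 0.769. Slc7a5 was close to its relative Slc7a8, with ratios of 1.13 and 1.07. Exons of 9 of the genes overlap another gene, and for 4 of them (Eng, Nos3, Notch3 and Tagln) that gene lies on the other strand and averages 50 counts or more. The largest such neighbour is Pcsk7, with 463 and 536 counts beside the 84 and 77 of Tagln. The sources used here do not say whether the counting was strand-specific, so these 4 levels are uncertain.

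Forms of the vascular genes were read from transcript shares of TPM, in which a short transcript can hold a large share from few counts. Of the 39 genes, 4 had 1 annotated transcript and 35 had several, and for 23 at least 2 transcripts each held 10% or more of the gene's TPM in both animals. Among those 35, the leading transcript was the same in both animals for 30 genes in the first table and 29 in the second, and for 21 it was the same in both animals and both tables.

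Tjp1 is spliced with or without an exon that encodes the alpha domain of ZO-1, and the forms are used by different cell types. The exon lies at mm10 chr7:65314093-65314332, minus strand, and is printed whole in capitals as the bases that Tjp1-202 holds and Tjp1-201 lacks.
Tjp1-202: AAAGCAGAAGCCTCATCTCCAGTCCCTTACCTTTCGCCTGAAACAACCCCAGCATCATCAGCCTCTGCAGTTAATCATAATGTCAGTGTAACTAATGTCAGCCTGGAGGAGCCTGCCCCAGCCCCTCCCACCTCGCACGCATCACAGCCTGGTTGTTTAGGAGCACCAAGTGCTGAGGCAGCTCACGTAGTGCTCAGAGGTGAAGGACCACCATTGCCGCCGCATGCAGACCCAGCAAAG

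In the first table the form with the exon, Tjp1-202, took 23.6% of the gene's TPM in replicate 1 and 23.0% in replicate 2, and the form without it, Tjp1-201, took 19.8% and 21.3%. In the second table the order was reversed, with 16.6% and 16.5% for Tjp1-202 and 25.4% and 29.2% for Tjp1-201. The animals were alike within each table and the tables differed, so which form led is not settled by these values. Both forms were present at over 10% throughout.

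Endoglin has a long form and a short form, the latter made when an intron near the 3′ end of the coding sequence is read through. The run below shows where Eng-202, the short form, departs, at mm10 chr2:32681268-32681386, plus strand: shared coding bases in lower case, then in capitals the read-through bases down to its stop codon.
Eng-202: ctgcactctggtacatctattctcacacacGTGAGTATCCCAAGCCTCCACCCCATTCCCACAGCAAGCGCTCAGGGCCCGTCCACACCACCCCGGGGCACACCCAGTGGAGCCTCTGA

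Eng-202 took 30.8% of the Eng TPM in replicate 1 and 25.0% in replicate 2, and 35.3% and 38.3% in the second table. The long form is split over Eng-201 and Eng-205, whose coding sequences are 1959 and 1956 nt. These differed between the animals far more than the short form did. Eng-201 took 24.8% in replicate 1 and 57.6% in replicate 2, while Eng-205 took 41.5% and 10.1%. The second table had the same directions, with 17.9% and 48.4% for Eng-201 and 27.4% and 13.3% for Eng-205. Summed Eng levels of 9.65 and 9.21 TPM showed nothing of this exchange. Eng-201 and Eng-205 are close in length (3422 and 3403 nt), and how many reads tell them apart was not tested. Both tables describe the same libraries, so the second is not independent support for the exchange.

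**Figure D4:**
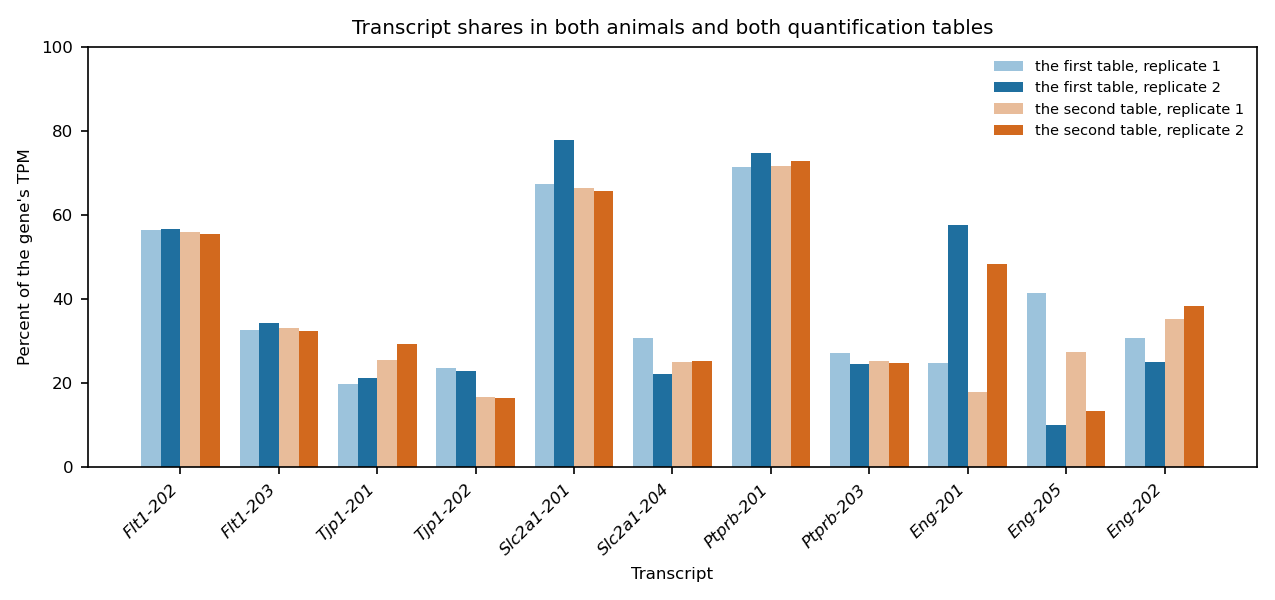
Percent of the gene's TPM (y axis) held by named transcripts of Flt1, Tjp1, Slc2a1, Ptprb and Eng (x axis) in replicates 1 and 2 of the first table (blue bars) and of the second table (orange bars). The Flt1 and Ptprb shares are level across all 4 bars, the Tjp1 pair changes order between tables, and Eng-201 and Eng-205 exchange places between the animals.

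Some other splits were close in both animals and both tables, and some were not. Ptprb-201, of 32 exons, held 71.5% and 74.8% of the Ptprb TPM and the longer-coding Ptprb-203, of 34 exons, 27.2% and 24.6%, and the second table gave 71.7% and 72.8% for Ptprb-201. For Slc2a1, Slc2a1-204, which is annotated as a target of nonsense-mediated decay and lacks an exon of the transporter, took 30.8% in replicate 1 and 22.2% in replicate 2. The second table gave 25.1% and 25.2%, so the difference between the animals was in the first table alone. The leading Ly6c1 transcript changed in the first table: Ly6c1-202 took 50.1% in replicate 1 and 24.2% in replicate 2, from 252 and 106 counts, and Ly6c1-201 took 43.1% and 60.4%. In the second table Ly6c1-202 had 50.6% and 55.6% and Ly6c1-201 was near 0%, so that change was not seen there. Vtn-204, a retained-intron transcript, held 20.6% and 18.4% of Vtn. Transcripts of other biotypes than protein-coding held over 20% in both animals for 4 genes: 56.8% and 50.5% for Vwf, 33.5% and 36.3% for Tjp1, 32.4% and 44.2% for Egfl7, and the Slc2a1 shares given above. By the second table this held for 6 genes, with Vtn (22.1% and 24.4%) and Adgrl4 in addition. For Adgrl4 the tables were far apart, with 59.6% and 54.9% in the second and 0% and 11.98% in the first. Short transcripts weigh on these shares. Vwf-209, a processed transcript of 456 nt, held 24.8% and 26.5% of the Vwf TPM from 14.4 and 16.2 of its 761 and 832 counts. Cdh5 showed how short transcripts weigh on the level of a gene as well. Cdh5-202, of 346 nt, took 10.6% and 11.6% in the first table from 2.88 and 3.10 counts, and 54.4% and 57.8% in the second, and the second table put Cdh5 at 1.66 times its level in the first. The other 38 genes had second-table levels from 0.710 times (Rgs5) the first upward, and the median of all 39 was 0.871.

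Smooth muscle myosin marks contractile states by 2 splicing choices, an insert in the motor domain and an alternative tail. The coding bases of both exons are printed in capitals, on the minus strand of chr16 in mm10: the insert of Myh11-204 at chr16:14248580-14248600 and the tail of Myh11-202 at chr16:14198058-14198088, which ends in its stop codon.
Myh11-204: CAAGGTCCATCTTTTGCCTAC
Myh11-202: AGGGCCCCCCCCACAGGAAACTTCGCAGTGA

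Myh11-201, which has neither, led with 59.8% of the Myh11 TPM in replicate 1 and 77.2% in replicate 2. Myh11-204 took 37.0% and 9.97%, from 53.7 and 18.8 counts, and Myh11-202 was listed at 0 in replicate 1 and took 12.9% in replicate 2, from 23.4 counts. In the second table Myh11-204 had 38.3% and 0%, and Myh11-202 had 0% and 18.3%. At these counts the form without the insert and the alternative tail led in both animals and both tables, and the shares of the others were not resolved.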

How the data were processed

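Expected counts and TPM per gene and transcript are the authors' values, deposited in tables with the layout RSEM writes (the first table). A second deposited transcript table, with the layout kallisto writes, gives estimated counts and TPM. Percent of gene TPM per transcript and the credibility bounds, scores of unstated level, are as deposited per the file headers. Reads were mapped to mm10 with GENCODE M21, per the deposited readme. Tool names, versions and strand settings: not given in the sources used here. TPM covers all features, so abundant noncoding RNA lowers every level. Hybrid reads were placed on the reference genome, so CAST/EiJ reads may be counted less often.

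Expected counts were rounded to whole numbers. Spike-ins and other non-gene features (0.265% and 0.226% of counts) were kept out of library sizes. CPM used TMM factors and a prior count of 1 (edgeR 4.0.16, R 4.3.3), for genes averaging 50 counts or more. Other scalings were DESeq2 1.42.0 size factors, library totals and spike-ins, with a ratio of effective library sizes of 1.10 for TMM and 0.908 for spike-ins. The log2 difference has counting SE sqrt(1/a + 1/b)/ln 2. Gene counts of the libraries differed far beyond counting error (chi-square over degrees of freedom 13.2, from 20162 genes), as separate libraries do. The script was tested on simulated data.

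Detection was 1 TPM in both libraries. "Past 1.2-fold" describes size only, since 2 animals of 1 group give no test. Sequences come from GENCODE M21 transcripts (GRCm38, the same build). Named genes are all 39, and of each other list up to 4 by level, up to 3 by difference and those under 1 TPM. Angpt2, Ly6c2, Pcsk7 and genes in ratios were named in addition. The genes and lists were chosen with earlier results of these data known.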

Additional observations from a re-analysis of the deposited data

How the results depend on the processing

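Class medians of level kept their order in every alternative run. The endothelial median of 9.29 TPM became 8.82 TPM in the second table, 19.2 TPM when TPM was rescaled over nuclear protein-coding genes, and 8.80 TPM without the 4 broadly expressed genes Tjp1, Slc2a1, Slc7a5 and Slc16a1, an alternative chosen after seeing the data. The pericyte median of 5.04 TPM became 10.4 TPM over coding genes and 6.35 TPM over genes at 1 TPM or more. The smooth muscle median of 3.79 TPM became 3.02 TPM in the second table and 7.84 TPM over coding genes. Leaving out each animal gave 9.28 to 9.30, 4.50 to 5.58 and 3.29 to 4.29 TPM for the 3 classes, 38 to 39 genes detected and 32.6% to 34.4% soluble Flt1. At 5 TPM, 24 genes were detected. Spike-in scaling moved the endothelial median difference to 0.11, the pericyte one to 0.50 and Cldn5 from −0.26 to 0.0124, since it raises the median of all genes by 0.28. The cause of the other changes was not tested. DESeq2 factors, library totals, a prior count of 5 and the second table left the sign of all class medians, with 15 to 17 genes past 1.2-fold against 16. A minimum of 200 counts left no smooth muscle gene. Counts limited Kcnj8, Emcn, Erg, Sox17, Sox18, Ly6a and the smooth muscle genes, all under 200 per library.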

Other observations

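Markers of arterial and venous endothelium gave no common direction between the animals. Of 12 such genes 9 had enough counts, 4 were higher and 5 lower in replicate 2, 1 in each direction past 1.2-fold (background 14.3% higher and 13.1% lower), and the median difference was −0.06. Nr2f2, the venous factor COUP-TFII that some neurons also express, stood at 12.8 TPM in replicate 1 and at 9.50 in replicate 2, with a difference of −0.65 (SE 0.0938). Gkn3, a gene of arterial endothelium in brain, had 3.06 and 4.14 TPM and a difference of 0.35 (SE 0.291). Ackr1, the chemokine receptor of venules, was listed at 28.8 and 31.8 TPM, above Cldn5 in both animals. Its gene counts were fractional, at 549.3 and 630.5, so some reads were divided with other features and its level is uncertain. At the other end, 3 of the 12 genes were under 1 TPM in both animals.

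A list of 4 genes was read for fenestrated endothelium, the kind that vessels outside the barrier have. Of these, 3 had enough counts and were higher in replicate 2, 1 of them past 1.2-fold (background 14.3%). The 3 were Plvap, Plpp3 and Cd24a. Whether the reads of Plpp3 (89.5 and 97.8 TPM) and Cd24a come from such vessels was not tested. Plvap, which forms the diaphragms of such vessels, had 3.21 and 4.22 TPM and a difference of 0.31 (SE 0.181). The striated-muscle relative of Acta2, Actc1, had 4.05 and 0.97 TPM and a difference of −2.11 (SE 0.322), while the difference of Acta2 was 0.24 (SE 0.187).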
